A study of Homo sapiens with 12 samples.

Results

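The genes described here are 43 genes of the NRF2 antioxidant response and of ferroptosis, taken by gene symbol from the 60664 genes of an expression table of human liver cancer cells. They were matched by symbol, and the rule uses no expression value, but the 43 genes were chosen with earlier results of these data known. Messenger RNA was sequenced from 12 libraries of 2 hepatocellular carcinoma lines, Huh7 and MHCC97H, in 4 groups of 3. Huh7 cells had been transfected with a synthetic RNA that mimics mature miR-628-3p, and were set against Huh7 cells given a control mimic. MHCC97H cells carried a vector, called pGreen-628 in the labels, that overexpresses miR-628-3p, and were set against MHCC97H cells with the empty vector. The control groups of both lines are labelled as wild type and the other groups as overexpressing miR-628-3p, with no further treatment, and all 4 groups grew in the same serum-containing medium. Delivery therefore differed between the lines, and nothing in the labels says that the libraries of a group came from separate cultures, so p-values measure only the spread between these libraries.

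NRF2, encoded by NFE2L2, is the transcription factor that switches on the antioxidant and detoxifying genes of hepatocytes and of many liver tumours. KEAP1 holds NRF2 for degradation until electrophiles or oxidants modify it. Stabilised NRF2 pairs with a small MAF protein on antioxidant response elements, which BACH1 occupies as a repressor. The target genes make glutathione, keep thioredoxin reduced and clear quinones, carbonyls and heme. Ferroptosis is a form of cell death driven by peroxidation of membrane lipids, which the glutathione-dependent peroxidase GPX4 and the quinone reductase FSP1, encoded by AIFM2, hold back.

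The microRNA sequence and its match among the 43 genes are shown because miR-628-3p is what the study raised. The mature hsa-miR-628-3p of RefSeq (GRCh38.p14, chr15:55372954-55372974, minus strand) is written with its seed, bases 2 to 8, in capitals.
hsa-miR-628-3p: uCUAGUAAgaguggcagucga
The longest annotated 3′ UTR of each gene in GENCODE release 29 was searched for TTACTAG, the match to that seed. It was found in 1 of the 43 genes (2.33%), against 1301 of 19146 genes searched (6.80%). That gene was GCLM, the modifier subunit of the enzyme that limits glutathione synthesis. The match lay on the minus strand at chr1:93888486-93888492, from position 498 of a UTR of 3785 bases, and is in capitals below.
GCLM: gtagctgggatTTACTAGtagtgtaaata
The median 3′ UTR length was 777 bases among the 43 genes and 1103 bases among all genes searched. A match of letters is not a measured binding site.

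Promoters were searched for the core of the antioxidant response element, TGACNNNGC, on both strands of the 250 bases before to 50 bases after each RefSeq start (GRCh38.p14). Of the 43 genes, 33 matched a promoter entry by symbol. The core was in 9 of these 33 genes (27.3%) and in 16.1% of the 27305 genes with an entry. The 9 were KEAP1, GCLM, TXNRD1, GPX2, AIFM2, CBR1, EPHX1, ME1 and NCOA4. The windows below belong to genes whose levels are given later, with the motif in capitals, read in the direction of the motif.
KEAP1 (chr19:10502784-10502812, plus strand): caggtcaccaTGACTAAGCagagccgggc
GCLM (chr1:93909446-93909474, plus strand): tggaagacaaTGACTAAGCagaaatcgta
TXNRD1 (chr12:104215670-104215698, plus strand): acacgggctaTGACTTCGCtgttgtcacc
GPX2 (chr14:64942849-64942877, plus strand): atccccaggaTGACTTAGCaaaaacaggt
EPHX1 (chr1:225825266-225825294, plus strand): tgagattggcTGACTTGGCaggactgtgc
CBR1 (chr21:36069855-36069883, minus strand): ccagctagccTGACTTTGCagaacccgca
AIFM2 (chr10:70132829-70132857, plus strand): gggcggggcgTGACTCAGCactcgtgctg
These are matches of letters in a fixed window, and no binding was measured.

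Each library held between 16472932 and 19578875 reads counted over genes. MIR628, the annotated feature of the microRNA, had 0 reads in all 12 libraries. How far miR-628-3p was raised is unknown here, since mature microRNAs are not captured by poly-A selection. The 8 hepatocyte markers summed to 11467.7 to 12730.4 FPKM in Huh7 with the miR-628-3p mimic and 10533.4 to 11407.4 FPKM with the control mimic. In MHCC97H they summed to 61.0 to 67.0 FPKM with the miR-628-3p vector and 35.8 to 38.5 FPKM with the empty vector, and most of that difference was albumin, at 39.8 and 13.9 FPKM. Not every hepatocyte marker had the higher mean with miR-628-3p. SERPINA1 averaged 1.72 FPKM with the miR-628-3p vector and 2.28 FPKM with the empty vector in MHCC97H, and HNF4A averaged 17.0 FPKM with the miR-628-3p mimic and 20.8 FPKM with the control mimic in Huh7. Summed, the hepatocyte markers were far lower in MHCC97H than in Huh7, although both lines are labelled as liver. Of the leukocyte markers, PTPRC and CD3E stayed below 1 FPKM in all 12 libraries, while LYZ averaged 143 FPKM with the miR-628-3p mimic and 158 FPKM with the control mimic in Huh7. Of the endothelial markers, CLEC14A was at 0 in all 12 libraries, while PECAM1 averaged 7.35 FPKM with the miR-628-3p vector and 4.34 FPKM with the empty vector in MHCC97H. The part of these markers in the results below was not tested. The MHCC97H miR-628-3p libraries 2 and 3 stood apart from each other: the chi-square per degree of freedom over genes was 34.5 between them, against 1.93 to 3.50 between empty vector libraries and 2.19 to 10.7 between Huh7 libraries of a group. Reads of the 43 genes made up 1.40% ± 0.0694 of a library in Huh7 with the miR-628-3p mimic and 1.47% ± 0.0600 with the control mimic. In MHCC97H they made up 2.64% ± 0.0885 with the miR-628-3p vector and 2.79% ± 0.0359 with the empty vector (± with a level gives the SD over 3 libraries throughout).

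Levels are FPKM, reads scaled to exon length and to the total of the library, so they can be compared between genes. Tests used limma on log2(FPKM + 1), and a gene is said to be called, or to have risen or fallen, under an adjusted p of 0.05 (Benjamini-Hochberg, over all genes tested in that comparison). Genes had to reach a mean of 1 FPKM over the libraries compared. Adding 1 pulls the fold changes of weakly expressed genes toward 0. SRXN1, the sulfiredoxin that repairs oxidised peroxiredoxins, missed that minimum in every comparison, with 16 to 44 reads per library, and 84.5% of its 100-base windows are shared with another gene. GCH1, which makes tetrahydrobiopterin, missed it in MHCC97H alone. In bulk RNA, a gene expressed in fewer cells and a gene with less RNA per cell cannot be told apart.

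The starting point of the pathway was compared first, between MHCC97H with the empty vector and Huh7 with the control mimic. MHCC97H held far more RNA of several enzymes that NRF2 is known to control, and less RNA of KEAP1. Of 42 genes tested, 18 were higher and 17 lower in MHCC97H, or 35 in all, close to the background of 84.5% of all genes called in this comparison (42.3% higher, 42.2% lower). The groups did not overlap in 36 of the 42 genes, 19 higher and 17 lower, against 85.5% of all genes. After correction for transcript GC content and exon length 41 of the 42 genes were called, against 85.4% of all genes. At 2-fold or more the count was 13 higher, against 18.1% of all genes, and 7 lower, against 16.1%. At 8-fold or more it was 6 higher, against 2.93% of all genes, and 2 lower, against 1.90%. Line and kind of control, vector or mimic, cannot be told apart here.

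The 6 genes at least 8-fold higher in MHCC97H were 4 detoxifying enzymes or peroxidases, the cystine carrier and the inducible heme oxygenase. AKR1C3 (chr10:5035354-5107686), an aldo-keto reductase of prostaglandins and steroids, was at 1728, 1640.3 and 1640.4 FPKM in MHCC97H with empty vector and 15.7, 13.2 and 14.6 FPKM in Huh7 with control mimic. GPX2 (chr14:64939152-64942905), a glutathione peroxidase of epithelia, was at 1349, 1331 and 1393 FPKM in MHCC97H and 14.9, 11.5 and 15.2 FPKM in Huh7. The aldo-keto reductase AKR1B10 (chr7:134527567-134541412) was at 3400.1, 3410.5 and 3551 FPKM in MHCC97H and 64.6, 55.3 and 62.8 FPKM in Huh7. The groups lay far apart in all 3 genes, with log2 differences of 6.76 (SE 0.0627) for AKR1C3, 6.52 (SE 0.0949) for GPX2 and 5.81 (SE 0.0617) for AKR1B10. AKR1C3 shares 4.98% and AKR1B10 shares 2.01% of its windows of 100 bases with other genes, which the counting could have split between them.

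EPHX1 (chr1:225810124-225845563), the microsomal epoxide hydrolase, was at 301, 292 and 306 FPKM in MHCC97H with empty vector and 16.1, 15.4 and 14.5 FPKM in Huh7 with control mimic, a log2 difference of 4.20. SLC7A11 (chr4:138164097-138242349), the cystine carrier that feeds glutathione synthesis, was at 36.3, 33.7 and 37.0 FPKM in MHCC97H and 1.31, 2.00 and 1.89 FPKM in Huh7, a difference of 3.75. HMOX1 (chr22:35380361-35394214), which degrades heme, was at 256, 294 and 264 FPKM in MHCC97H and 20.6, 21.1 and 19.3 FPKM in Huh7, a difference of 3.67. No library of one line overlapped the other in these genes. The 2 genes at least 8-fold lower in MHCC97H were GCH1 and GPX3. GCH1 (chr14:54842008-54902826) was at 1.00, 1.02 and 0.996 FPKM in MHCC97H and 26.8, 25.6 and 26.4 FPKM in Huh7, a difference of -3.77. GPX3 (chr5:151020438-151028992), a secreted glutathione peroxidase, was at 6.83, 6.71 and 7.11 FPKM in MHCC97H and 90.3, 84.4 and 84.7 FPKM in Huh7, a difference of -3.47. The adjusted p of limma lay between 2.17e-10 for AKR1C3 and 2.85e-08 for SLC7A11 in these 8 genes.

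Among the regulators, KEAP1 (chr19:10486125-10503558) was at 3.40, 3.26 and 3.14 FPKM in MHCC97H with empty vector and 15.5, 15.8 and 14.0 FPKM in Huh7 with control mimic, a log2 difference of -1.91 (adjusted p = 5.65e-08). MAFG (chr17:81918270-81927735), a small MAF partner of NRF2, was at 29.3, 31.5 and 28.5 FPKM in MHCC97H and 7.72, 7.85 and 7.32 FPKM in Huh7 (1.83, adjusted p = 3.80e-08). The groups were separate for both genes. BACH1 (chr21:29194071-29630751) averaged 12.02 ± 0.701 FPKM in MHCC97H and 7.50 ± 1.07 FPKM in Huh7 (0.62, adjusted p = 0.000546). NFE2L2 (chr2:177227595-177392697) was at 54.7, 50.1 and 54.4 FPKM in MHCC97H and 55.4, 76.1 and 71.5 FPKM in Huh7 (-0.33, adjusted p = 0.0251). One Huh7 library lay within 1 FPKM of the MHCC97H libraries, so the groups of NFE2L2 barely separated.

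NQO1, the quinone reductase often used to read NRF2 activity, was high in both lines and close between them. NQO1 (chr16:69706996-69726668) was at 837, 833 and 848 FPKM in MHCC97H with empty vector and 824, 735 and 763 FPKM in Huh7 with control mimic, a log2 difference of 0.12 that was not called (adjusted p = 0.0552). GPX4 (chr19:1103926-1106791) was at 298, 309 and 311 FPKM in MHCC97H and 335, 299 and 297 FPKM in Huh7, with overlapping groups (-0.016, adjusted p = 0.784). The groups of NQO1 did not overlap. After GC and length correction limma called both genes, NQO1 at 0.12 (adjusted p = 0.0277) and GPX4 at -0.39 (adjusted p = 9.73e-05). GCLM (chr1:93885199-93909456) was at 138, 128 and 139.8 FPKM in MHCC97H and 27.1, 27.6 and 26.4 FPKM in Huh7, a difference of 2.28. TXNRD1 (chr12:104215779-104350307), the cytosolic thioredoxin reductase, was at 776, 781 and 763 FPKM in MHCC97H and 239, 236 and 237 FPKM in Huh7, a difference of 1.70. Both were called, with separate groups. AKR1C2, a close relative of AKR1C1 that shares 32.9% of its 100-base windows with other genes, averaged 482 ± 12.2 FPKM in MHCC97H and 485 ± 31.2 FPKM in Huh7, and its value is uncertain for that reason. AKR1C1, with 17.4% of windows shared, averaged 674 ± 19.6 FPKM in MHCC97H and 189 ± 14.0 FPKM in Huh7.

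Of 9 tested thioredoxins and peroxiredoxins, 5 were lower in MHCC97H and 2 higher, the higher ones being TXN and TXNRD1, where 42.2% of all genes were lower and 42.3% higher. PRDX1, the most abundant of them in Huh7, averaged 952 ± 6.38 FPKM in MHCC97H and 2499 ± 175 FPKM in Huh7, and PRDX4, the peroxiredoxin of the endoplasmic reticulum, averaged 56.8 ± 3.15 FPKM in MHCC97H and 361 ± 21.2 FPKM in Huh7. Among the 5 ferroptosis genes, 3 were lower in MHCC97H, 1 was higher and AIFM2 was not called. After GC and length correction limma called AIFM2 lower in MHCC97H, at -0.30 (adjusted p = 8.00e-05). ACSL4, which loads polyunsaturated fatty acids into membrane lipids, averaged 43.2 ± 2.74 FPKM in MHCC97H and 171 ± 14.1 FPKM in Huh7. NCOA4, which carries ferritin to lysosomes, averaged 40.0 ± 0.891 FPKM in MHCC97H and 155 ± 5.81 FPKM in Huh7. LPCAT3, which inserts polyunsaturated chains into phospholipids, averaged 49.3 ± 0.618 FPKM in MHCC97H and 24.0 ± 0.549 FPKM in Huh7.

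**Figure D1:**
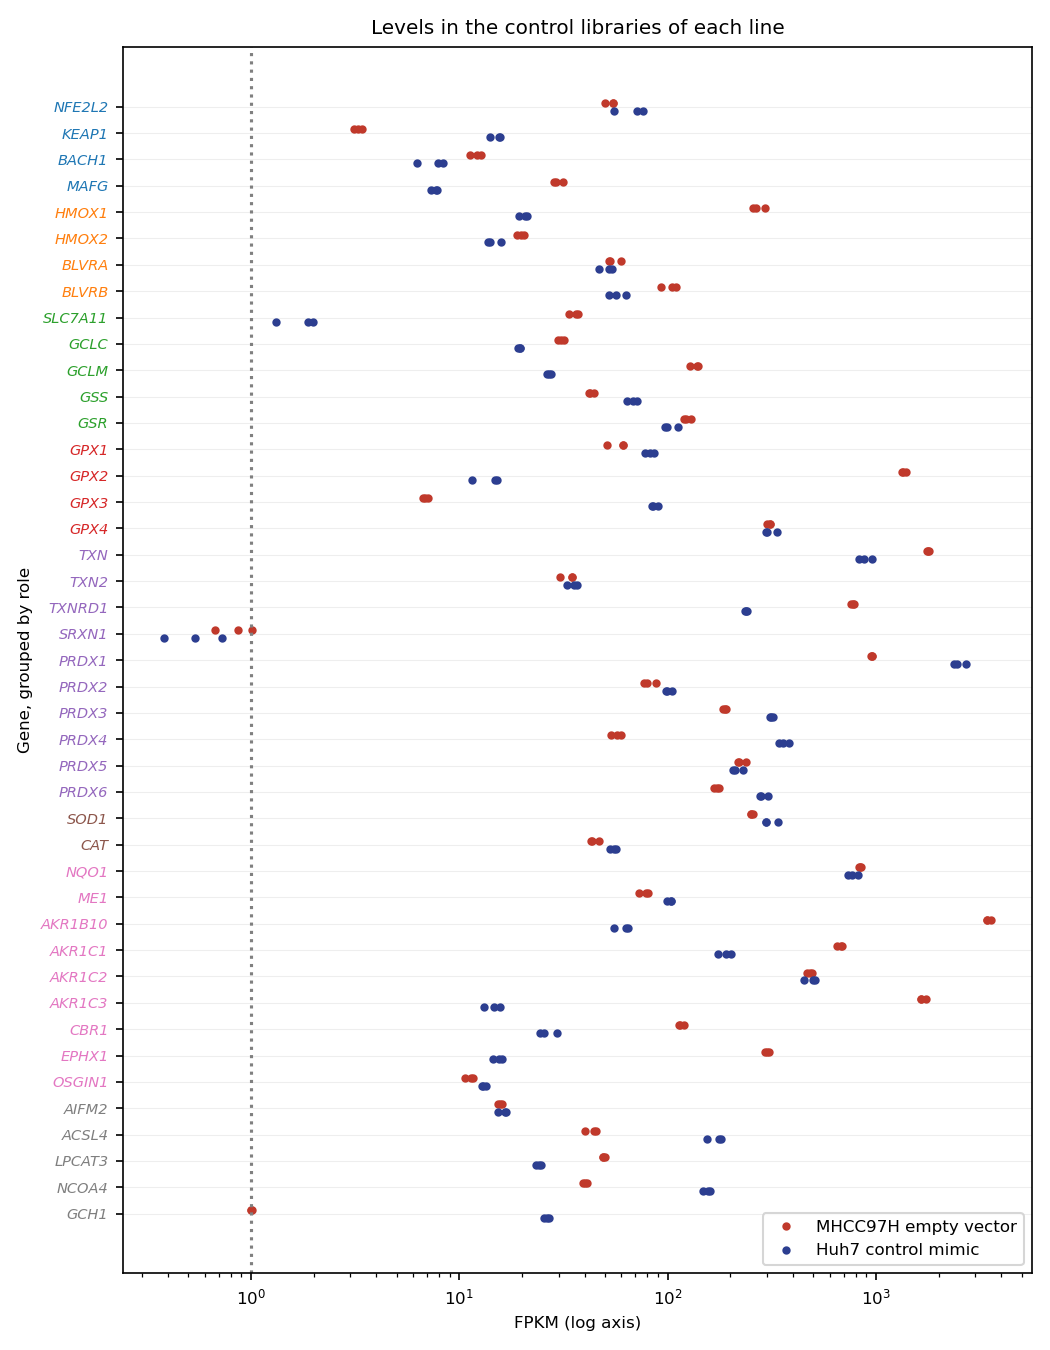
FPKM on a log axis of the 43 genes, grouped by role, in the 3 MHCC97H empty vector libraries and the 3 Huh7 control mimic libraries, 1 point per library, with a dotted line at 1 FPKM. AKR1C3, GPX2 and AKR1B10 lie furthest to the right of their Huh7 points, GCH1 and GPX3 furthest to the left, and NQO1 and GPX4 lie close together.

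The effect of miR-628-3p in Huh7 was small in every gene and mostly downward. Of 42 genes tested, 16 were called, 2 higher and 14 lower, against 21.1% of all genes tested (6.75% higher, 14.4% lower). The median log2 fold change of the 42 genes was -0.15, against -0.046 over all genes tested, and the members ranged between -0.42 and 0.42. The groups did not overlap in 25 of the 42 genes, 6 higher and 19 lower, against 48.8% of all genes tested. The 2 that rose were NFE2L2 and BACH1, and the falls were in every role group but the enzymes that clear superoxide and hydrogen peroxide.

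The regulators split by direction. NFE2L2 was at 89.5, 88.8 and 91.0 FPKM in Huh7 with the miR-628-3p mimic and 55.4, 76.1 and 71.5 FPKM with the control mimic. BACH1 was at 10.4, 9.89 and 10.4 FPKM with the miR-628-3p mimic and 6.29, 7.90 and 8.31 FPKM with the control mimic. In both genes every mimic library lay above every control library, and the control libraries were the more spread of the groups. NFE2L2 rose by 0.42 on the log2 scale (SE 0.11, adjusted p = 0.0362) and BACH1 by 0.41 (SE 0.0926, adjusted p = 0.0304). KEAP1 was at 10.4, 12.1 and 11.6 FPKM with the miR-628-3p mimic and 15.5, 15.8 and 14.0 FPKM with the control mimic. MAFG was at 5.79, 5.68 and 6.12 FPKM with the miR-628-3p mimic and 7.72, 7.85 and 7.32 FPKM with the control mimic. Both genes were lower in every mimic library, with log2 fold changes of -0.38 for KEAP1 (SE 0.0716, adjusted p = 0.0279) and -0.33 for MAFG (SE 0.0591, adjusted p = 0.0272).

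In heme breakdown, HMOX1 was at 14.6, 16.7 and 16.0 FPKM in Huh7 with the miR-628-3p mimic and 20.6, 21.1 and 19.3 FPKM with the control mimic. The groups were separate, and HMOX1 fell by 0.34 on the log2 scale (adjusted p = 0.0277). BLVRB, a biliverdin reductase, also fell, by 0.26, and HMOX2 and BLVRA were not called. Of the 5 genes of glutathione synthesis and recycling only GSS, glutathione synthetase, was called, at -0.19. GCLM, the gene with the seed match, was at 27.4, 28.8 and 27.3 FPKM with the miR-628-3p mimic and 27.1, 27.6 and 26.4 FPKM with the control mimic, with overlapping groups (log2 fold change 0.042, adjusted p = 0.537). SLC7A11 was at 2.17, 2.13 and 2.56 FPKM with the miR-628-3p mimic and 1.31, 2.00 and 1.89 FPKM with the control mimic, separate but not called (0.27, adjusted p = 0.109).

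Among the glutathione peroxidases, GPX3 and GPX4 were called lower and GPX1 and GPX2 were not called. GPX3 was at 69.4, 70.0 and 65.9 FPKM in Huh7 with the miR-628-3p mimic and 90.3, 84.4 and 84.7 FPKM with the control mimic. GPX4 was at 251, 255 and 229 FPKM with the miR-628-3p mimic and 335, 299 and 297 FPKM with the control mimic. No mimic library reached the lowest control library in either gene, and the log2 fold changes were -0.33 for GPX3 (adjusted p = 0.0272) and -0.34 for GPX4 (adjusted p = 0.0282). Of 9 tested thioredoxins and peroxiredoxins, 4 fell. PRDX2 (chr19:12796820-12801800), a cytosolic peroxiredoxin, was at 73.8, 76.8 and 74.6 FPKM with the miR-628-3p mimic and 105, 98.6 and 99.1 FPKM with the control mimic. Its groups were separate, and its log2 fold change of -0.42 was the lowest of the 42 genes (SE 0.0472, adjusted p = 0.0272). PRDX5 was at 182, 181 and 165 FPKM with the miR-628-3p mimic and 229, 210.0 and 207 FPKM with the control mimic (-0.29). TXN2, the mitochondrial thioredoxin, was at 30.0, 28.4 and 26.2 FPKM with the miR-628-3p mimic and 36.8, 35.4 and 32.7 FPKM with the control mimic (-0.30). Both were lower in every mimic library, and PRDX4 fell by 0.22. TXNRD1 was at 255, 246 and 248 FPKM with the miR-628-3p mimic and 239, 236 and 237 FPKM with the control mimic, separate but not called (0.07, adjusted p = 0.235).

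Of the 9 quinone, carbonyl and epoxide enzymes and related genes only OSGIN1, a growth inhibitor induced by oxidative stress, was called, where 21.1% of all genes were called. The median log2 fold change of the 9 genes was -0.11, and -0.12 after correction for GC content and length. OSGIN1 was at 9.54, 10.8 and 10.8 FPKM in Huh7 with the miR-628-3p mimic and 13.5, 13.1 and 12.9 FPKM with the control mimic, a separate pair of groups (log2 fold change -0.32, adjusted p = 0.0280), and 7.42% of its 100-base windows are shared with other genes. NQO1 was at 750.1, 693 and 662 FPKM with the miR-628-3p mimic and 824, 735 and 763 FPKM with the control mimic, with overlapping groups (-0.14, adjusted p = 0.158). Among the ferroptosis genes, AIFM2 (chr10:70098223-70132934) was at 12.7, 13.5 and 13.5 FPKM with the miR-628-3p mimic and 16.8, 16.5 and 15.4 FPKM with the control mimic, a fall by 0.28 (adjusted p = 0.0285). LPCAT3 averaged 21.0 ± 0.827 FPKM with the miR-628-3p mimic and 24.0 ± 0.549 FPKM with the control mimic, a fall by 0.19. ACSL4 averaged 198 ± 6.57 FPKM with the miR-628-3p mimic and 171 ± 14.1 FPKM with the control mimic (0.21, adjusted p = 0.0553), and NCOA4 and GCH1 were not called. SOD1 and CAT, which clear superoxide and hydrogen peroxide, were not called either.

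In Huh7 the fold change followed the GC content of the transcript, with a Spearman rho of -0.86 across the 42 genes and -0.72 across all genes with a known GC content. All genes share the same 6 libraries, so these are descriptions. The median GC content was 51.1% over the 42 genes and 47.1% over all genes with a known GC content. It was 42.1% for the 2 genes called higher and 57.1% for the 14 called lower. When each library was corrected, blind to its group, for transcript GC content and exon length, none of the 42 genes was called by limma. Over all genes 0.00803% were called. At an unadjusted p under 0.05 were 13 of the 42 genes, against 2889 of 12452 genes. The median fold change of the 42 genes was then -0.037, against -0.013 over all genes. NFE2L2 kept its size at 0.43 (adjusted p = 0.109), while GPX4 was then at -0.061, KEAP1 at -0.17 and BACH1 at 0.21 on the log2 scale.

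The Huh7 calls also changed when single libraries were left out, among the members and over all genes alike. No member was called by limma without mimic library 1, 2 or 3 or without control library 2. Over all genes 0, 4, 0 and 1 were then called. At an unadjusted p under 0.05 were 23, 19, 19 and 24 members, against 22 with every library. Over all genes 4491, 4493, 4402 and 4590 were under that p, against 5236 of 12508 with every library. Without control library 1, 10 members and 924 of 12484 genes were called. Without control library 3 it was 14 members and 1661 of 12494 genes. With library medians made equal, 3 members were called higher and 11 lower. With quantiles made equal, 4 were called higher and 12 lower. Over all genes 844 were higher and 1798 lower as deposited. The numbers were 1201 higher and 1413 lower with medians made equal, and 1352 higher and 1394 lower with quantiles made equal.

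**Figure D2:**
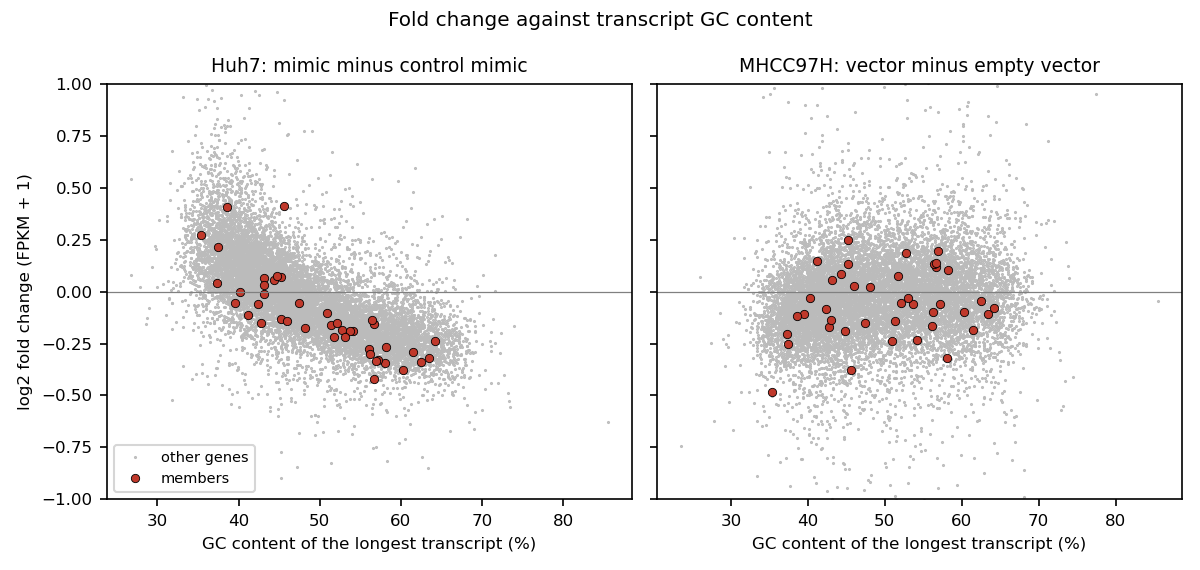
Log2 fold change of FPKM + 1 against the GC content of the longest transcript in percent, for Huh7 on the left and MHCC97H on the right, with the members as large points and all other tested genes as small ones; genes beyond a fold change of 1 in either direction are not drawn. In Huh7 the members follow the downward slope of all genes (rho -0.86 and -0.72), and in MHCC97H there is only a weak slope (rho 0.20 and 0.17).

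In MHCC97H, 1 of 41 genes tested was called with the miR-628-3p vector, against 5.37% of all genes tested (2.32% higher, 3.05% lower). That gene was HMOX1, at 209, 219 and 224 FPKM with the miR-628-3p vector and 256, 294 and 264 FPKM with the empty vector. Every library with the miR-628-3p vector was below every empty vector library, and HMOX1 fell by 0.32 on the log2 scale (SE 0.07, adjusted p = 0.0453). Its call held in 4 of 11 other settings and in 1 of the 6 fits that left out a library, the one without miR-628-3p vector library 3, with adjusted p between 0.00863 and 0.178 and fold changes between -0.36 and -0.26. The groups did not overlap in 16 of the 41 genes, 5 higher and 11 lower, against 30.0% of all genes. The median log2 fold change of the 41 genes was -0.076, against -0.039 over all genes tested.

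The regulators were all below 0 in MHCC97H, and none was called. NFE2L2 was at 40.1, 34.4 and 48.4 FPKM with the miR-628-3p vector and 54.7, 50.1 and 54.4 FPKM with the empty vector, with separate groups (log2 fold change -0.38, SE 0.12, adjusted p = 0.113). KEAP1 was at 3.41, 2.86 and 2.72 FPKM with the miR-628-3p vector and 3.40, 3.26 and 3.14 FPKM with the empty vector (-0.10, adjusted p = 0.578). BACH1 was at 10.6, 8.63 and 14.5 FPKM with the miR-628-3p vector and 12.1, 11.3 and 12.7 FPKM with the empty vector (-0.11, adjusted p = 0.723). MAFG was at 29.9, 29.2 and 26.6 FPKM with the miR-628-3p vector and 29.3, 31.5 and 28.5 FPKM with the empty vector (-0.057, adjusted p = 0.690). The groups overlapped in KEAP1, BACH1 and MAFG.

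SLC7A11 was the most variable of the genes. It was at 25.9, 17.0 and 36.1 FPKM in MHCC97H with the miR-628-3p vector and 36.3, 33.7 and 37.0 FPKM with the empty vector. Libraries 1 and 2 with miR-628-3p lay below every empty vector library and library 3 lay among them, and the log2 fold change of -0.48 (SE 0.23) was not called (adjusted p = 0.265). Its coefficient of variation was 36.3% with the miR-628-3p vector, against a median of 8.62% over the genes in that group and 3.09% with the empty vector. GCLM was at 121, 97.5 and 137 FPKM with the miR-628-3p vector and 138, 128 and 139.8 FPKM with the empty vector, with overlapping groups (-0.20, adjusted p = 0.372). TXNRD1 was at 695, 626 and 717 FPKM with the miR-628-3p vector and 776, 781 and 763 FPKM with the empty vector, separate but not called (-0.19, adjusted p = 0.164). GPX4, at 308, 336 and 254 FPKM with the miR-628-3p vector and 298, 309 and 311 FPKM with the empty vector, and NQO1, at 878, 887 and 804 FPKM with the miR-628-3p vector and 837, 833 and 848 FPKM with the empty vector, overlapped between the groups. Of the other genes, none of the remaining peroxidases, peroxiredoxins, detoxifying enzymes or ferroptosis genes was called. CAT, catalase, came closest, at 51.8, 53.2 and 54.3 FPKM with the miR-628-3p vector and 43.5, 43.1 and 47.0 FPKM with the empty vector (0.25, adjusted p = 0.0580), with every miR-628-3p library the higher.

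Library 3 with the miR-628-3p vector decided much of this comparison. Over all genes tested, 680 of 12670 were called with every library and 1604 of 12679 without library 3. Without it, limma called 10 of 41 genes, 6 higher and 4 lower, against 632 higher and 972 lower over all genes. The 4 lower were NFE2L2 at -0.50 (adjusted p = 0.0112), SLC7A11 at -0.74 (adjusted p = 0.0290), TXNRD1 at -0.23 and HMOX1 at -0.34. Among the 6 higher were LPCAT3 at 0.25 and PRDX2 at 0.27. Without any other single library no member was called by limma, with 3 to 8 members at an unadjusted p under 0.05. Over all genes 142 to 692 were called in those fits, and 1786 to 3111 were under that unadjusted p. After correction for GC content and length, 11 of the 41 genes were called, against 15.7% of all genes: PRDX2, PRDX6, CAT, AKR1C3, EPHX1 and LPCAT3 were higher, and SLC7A11, GSS, TXNRD1, PRDX5 and AIFM2 were lower. HMOX1 was then at -0.27 and not called (adjusted p = 0.0692). By other scalings the members called were 0 after median rescaling and 2 after quantile normalization. After median rescaling 4 members were at an unadjusted p under 0.05, as were 2619 of 12670 genes. Over all genes the split was 294 higher and 386 lower as deposited, 357 and 284 after median rescaling, and 417 and 324 after quantile normalization.

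**Figure D3:**
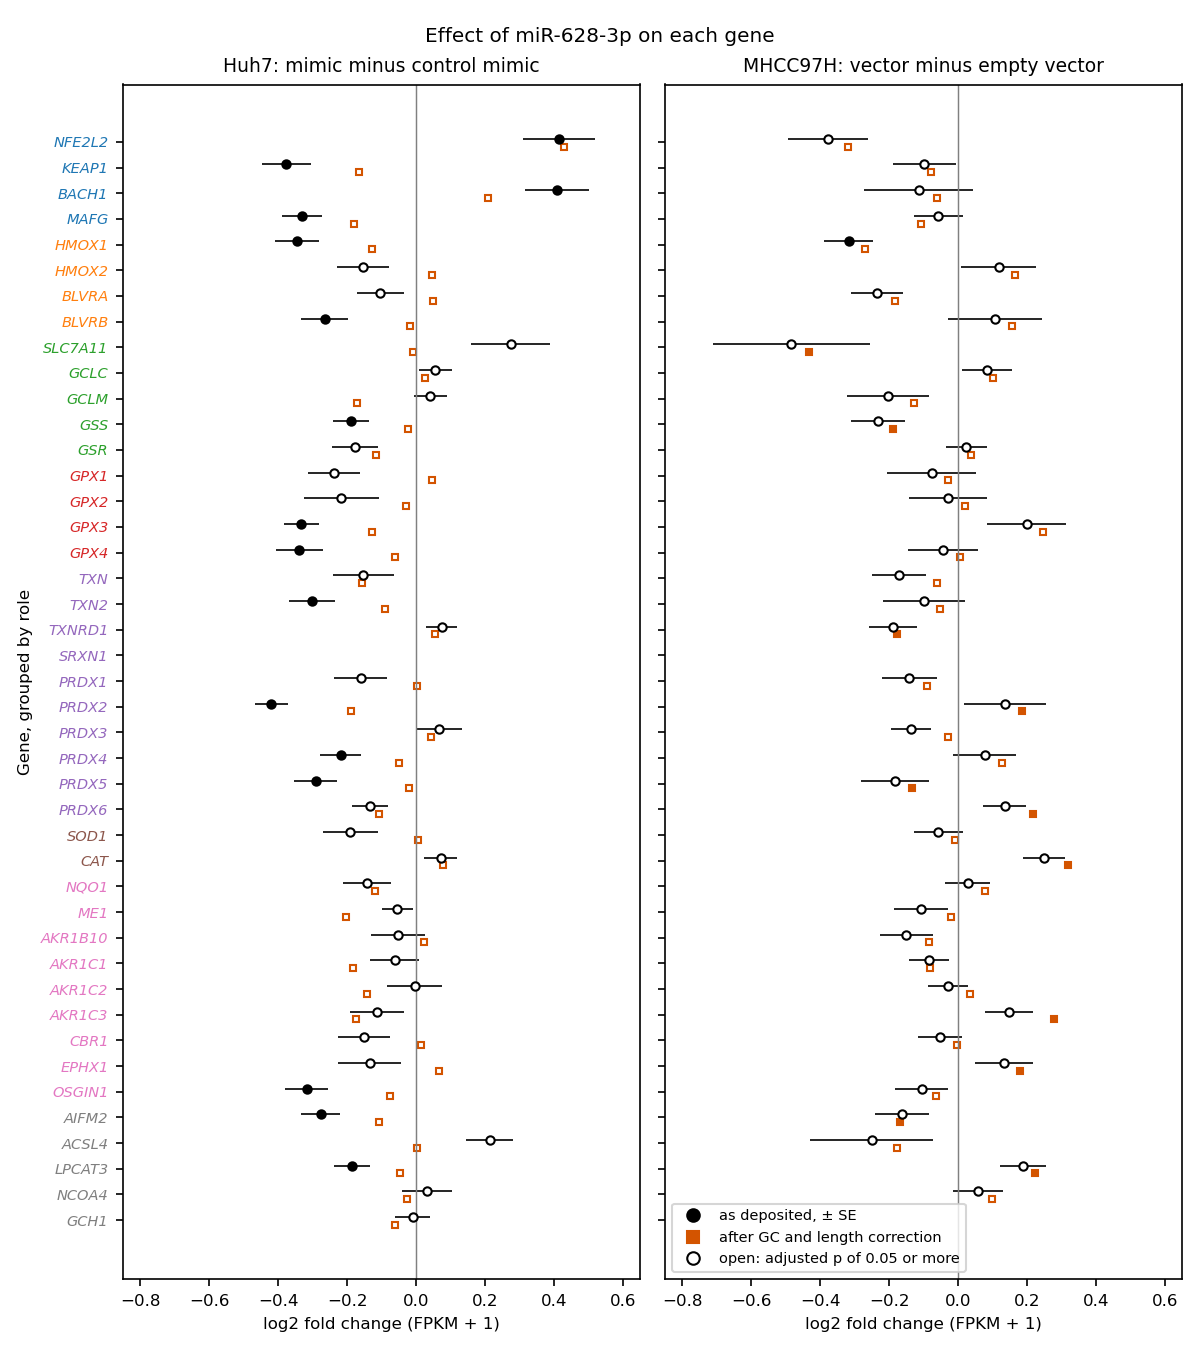
Log2 fold change of FPKM + 1 for each gene, miR-628-3p minus control, in Huh7 on the left and MHCC97H on the right; circles with SE bars are values as deposited and squares are values after GC and length correction, filled where the adjusted p was under 0.05. In Huh7 16 circles and no squares are filled, and in MHCC97H 1 circle, HMOX1, and 11 squares are filled.

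Whether miR-628-3p acted differently in the lines was tested as an interaction over all 12 libraries, where a positive value means a higher log2 fold change in MHCC97H than in Huh7. Of 42 genes tested, 6 were called, 4 higher and 2 lower in MHCC97H, against 12.9% of all genes tested (7.43% higher, 5.43% lower). NFE2L2 had the largest difference, at -0.79 (SE 0.17, adjusted p = 0.0166): every miR-628-3p library was above its controls in Huh7 and below them in MHCC97H. LPCAT3 (chr12:6976185-7018477) differed by 0.37 (adjusted p = 0.0155). It was at 58.0, 59.4 and 51.9 FPKM with the miR-628-3p vector and 49.1, 48.8 and 49.999 FPKM with the empty vector in MHCC97H, and at 20.1, 21.4 and 21.6 FPKM with the miR-628-3p mimic and 24.6, 24.0 and 23.5 FPKM with the control mimic in Huh7. Its libraries were thus all higher with miR-628-3p in MHCC97H and all lower in Huh7.

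GPX3 differed by 0.53 (adjusted p = 0.0239), at 7.42, 9.83 and 7.11 FPKM with the miR-628-3p vector and 6.83, 6.71 and 7.11 FPKM with the empty vector in MHCC97H. The difference of PRDX2 was 0.56 (adjusted p = 0.0248), with 94.5, 102 and 74.2 FPKM with the miR-628-3p vector and 77.2, 87.6 and 79.3 FPKM with the empty vector in MHCC97H. PRDX6 (chr1:173477330-173488815), a peroxiredoxin that reduces phospholipid peroxides, differed by 0.27 (adjusted p = 0.0414). It was at 195, 195 and 178 FPKM with the miR-628-3p vector and 173, 167 and 176 FPKM with the empty vector in MHCC97H, and at 259, 261 and 265 FPKM with the miR-628-3p mimic and 303, 279 and 279 FPKM with the control mimic in Huh7. The groups of PRDX6 were separate in both lines, in opposite directions, while those of PRDX2 overlapped in MHCC97H. TXNRD1 differed by -0.26 (adjusted p = 0.0429), from its separate but uncalled groups in each line. HMOX1, called lower within both lines, had a difference of 0.03 (SE 0.0937, adjusted p = 0.856). After GC and length correction it was called in neither line, at -0.27 in MHCC97H (adjusted p = 0.0692) and -0.13 in Huh7 (adjusted p = 0.199).

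After GC and length correction 9 of the 42 genes were called in the difference between lines, against 15.3% of all genes, and all 6 genes above were among them, with SLC7A11, CAT and AKR1C3 added. LPCAT3 was called in all 10 other settings and without any single library, and NFE2L2 in 9 of the 10 settings and without any single library. TXNRD1 and PRDX6 were called in 5 of 10 settings and in 1 of the 12 fits that left out a library. Without miR-628-3p vector library 3 of MHCC97H, 20 of the 42 genes were called, as were 4670 of the 13178 genes tested. With every library 1694 of 13171 genes were called. The count of members was 2 without Huh7 control library 1 or without MHCC97H empty vector library 1 or 3. Over all genes 705, 650 and 637 were then called. It was 3 members without Huh7 mimic library 1 or MHCC97H miR-628-3p vector library 1, with 845 and 831 genes called. No other omission moved the count of members by over 1.5 times.

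The lines share no libraries, so the signs of their effects can be set side by side. Of 41 genes tested in both, 23 had the same sign (56.1%), 20 lower and 3 higher in both, against 47.6% of 10910 genes tested in both. The other 18 were 11 genes higher in MHCC97H and lower in Huh7, and 7 genes the other way.

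**Figure D4:**
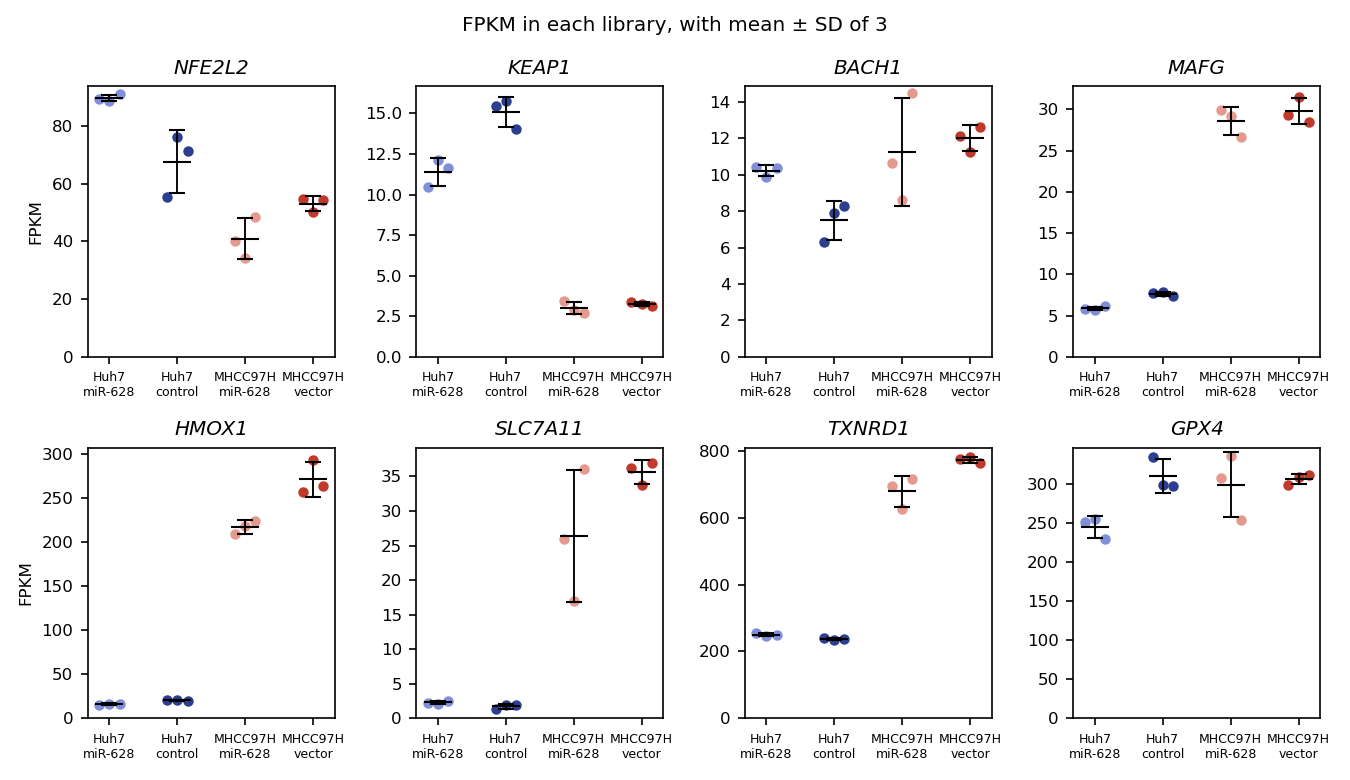
FPKM of NFE2L2, KEAP1, BACH1, MAFG, HMOX1, SLC7A11, TXNRD1 and GPX4 in each library of the 4 groups, 1 point per library, with a bar at the mean and error bars of 1 SD, on linear axes from 0. NFE2L2 with miR-628-3p lies above its controls in Huh7 and below them in MHCC97H, and SLC7A11 spreads most among the MHCC97H miR-628-3p libraries.

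Other genes of the same pathways were counted from 7 lists. In Huh7 with the miR-628-3p mimic, 2 of 8 NRF2 partners fell, among them the KEAP1-binding autophagy receptor SQSTM1, at 253.6 ± 8.25 FPKM with the miR-628-3p mimic and 300.6 ± 14.0 FPKM with the control mimic. Of 21 other NRF2 targets, 19 were tested, 3 fell and 1 rose. TKT, the transketolase of the pentose phosphate pathway, averaged 30.1 ± 1.54 FPKM with the miR-628-3p mimic and 36.2 ± 1.90 FPKM with the control mimic. Of 19 tested genes of glutathione supply and transferases, 4 fell, and of 11 tested thioredoxin and superoxide genes, 2 fell, among them the mitochondrial reductase TXNRD2. Of 9 tested genes of selenoprotein synthesis, 1 fell, and of 6 genes of tetrahydrobiopterin synthesis, 3 fell. Of 28 tested ferroptosis genes outside the 43, 8 fell and 2 rose, and both subunits of ferritin, FTH1 and FTL, were among the falls at -0.32 and -0.28, though ferritin genes have pseudogene copies that can take up reads. In all, 26 of 100 tested genes of the 7 lists were called in Huh7, 23 of them lower. Over all genes 21.1% were called and 14.4% were called lower. Voom called 28 of the 100 list genes and 3537 of all 12508 genes tested. After GC and length correction none of the list genes was called by limma, where 0.00803% of all genes were called. At an unadjusted p under 0.05 were then 20 of the 100 list genes and 2889 of 12452 genes.

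In MHCC97H 11 of 106 tested genes of the 7 lists were called, 10 of them lower, where 5.37% of all genes were called and 3.05% were called lower. After GC and length correction 29 of the tested genes were called, where 15.7% of all genes were called. None of 21 other NRF2 targets was called by limma, with 7 at an unadjusted p under 0.05, 1 called by voom and 5 called after GC and length correction. None of 8 partners was called by limma or voom, with 2 at an unadjusted p under 0.05 and 1 called after the correction. Over all genes tested in MHCC97H, 2819 of 12670 were under that unadjusted p, and voom called 739. CHAC1, which degrades glutathione, was at 1.79, 2.09 and 1.97 FPKM with the miR-628-3p vector and 5.58, 6.85 and 5.84 FPKM with the empty vector, and its log2 fold change was -1.26, with an SE of 0.0935 and an adjusted p of 0.00110. CTH, which makes cysteine from cystathionine, was at 5.12, 5.42 and 6.76 FPKM with the miR-628-3p vector and 10.6, 11.04 and 11.1 FPKM with the empty vector (-0.83, adjusted p = 0.00504). SLC3A2, the partner chain of the cystine carrier, fell by 0.43 and ANPEP, an aminopeptidase, rose by 0.40, which made 3 falls and 1 rise in 20 tested genes of that list. The groups of CHAC1 and CTH were far apart in MHCC97H. By the interaction test of limma, the effects differed between the lines by -1.50 for CHAC1 and -0.86 for CTH (adjusted p = 0.000315 and 0.00449). In Huh7, CHAC1 was at 0.58, 0.53 and 0.20 FPKM with the miR-628-3p mimic and 0.19, 0.34 and 0.12 FPKM with the control mimic. It missed the minimum of 1 FPKM there and was not tested within Huh7, so its difference rests on few reads in that line. CTH averaged 6.73 ± 0.609 FPKM with the miR-628-3p mimic and 6.54 ± 0.801 FPKM with the control mimic.

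Of 12 tested thioredoxin and superoxide genes, 3 fell in MHCC97H, where 3.05% of all genes fell. The mitochondrial superoxide dismutase SOD2 was at 9.65, 9.78 and 10.1 FPKM with the miR-628-3p vector and 14.9, 15.2 and 15.5 FPKM with the empty vector (log2 fold change -0.58, adjusted p = 0.00349). SOD3, its secreted relative, averaged 2.00 ± 0.241 FPKM with the miR-628-3p vector and 4.48 ± 0.798 FPKM with the empty vector (-0.86). Of 30 tested ferroptosis genes outside the 43, 4 fell. ACSL1, an acyl-CoA synthetase, averaged 17.6 ± 0.860 FPKM with the miR-628-3p vector and 26.9 ± 0.186 FPKM with the empty vector (-0.59), and SAT1, which acetylates polyamines, averaged 224 ± 5.87 FPKM with the miR-628-3p vector and 342 ± 20.3 FPKM with the empty vector (-0.61). All of these calls remained after GC and length correction. Genes of selenoprotein and tetrahydrobiopterin synthesis had no call by limma or voom in MHCC97H, and 1 of each list was called after that correction. At an unadjusted p under 0.05 were 1 and 2 of them, where 2819 of 12670 genes were under that p. In the control libraries, 15 of the 21 other NRF2 targets were higher in MHCC97H and 6 lower, where 42.3% of all genes were higher and 42.2% lower. Their median log2 difference was 1.69, and the aldehyde dehydrogenase ALDH3A1 had the largest, at 8.75.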

How the data were processed

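Poly-A RNA of 12 libraries was sequenced from both ends with strand kept by dUTP, per the labels' protocols. The authors deposited 1 table of FPKM for 60664 genes with Ensembl identifiers, exon lengths and coordinates on GRCh38.p13, per the file headers. The tools HTSeq, HISAT and HISAT2 and the build names hg38 and GRCh38 come from the submitters' processing notes; versions, and whether counting used the strand, are not given in the sources used here. FPKM times exon length was divided in each library by its smallest value above 0, which was taken as 1 read. The result was a whole number in 100% of deposited values within 0.01. Reads were worked back on that assumption and tested with limma voom as an alternative. No sample column was left unused (0).

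The 43 genes, the 7 pathway lists and the marker lists were chosen with earlier results of these data known. Genes described library by library are 10 fixed ones (NFE2L2, KEAP1, BACH1, MAFG, HMOX1, NQO1, SLC7A11, GCLM, TXNRD1 and GPX4), up to 12 called genes per line and 5 for the difference between lines by smallest adjusted p, and the 8 largest differences between control groups; CAT was added after its values were seen. From each pathway list, up to 2 called genes per line with the smallest adjusted p are named (some genes are not reported here), and a few others, chosen after their values were seen, are named without that rule (FTH1, FTL, SLC3A2, ANPEP and ALDH3A1).

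Each line, its control groups and the 12 libraries with a line by miR-628-3p interaction were fitted on log2(FPKM + 1) with limma (version 3.58.1; R 4.3.3), for genes whose mean FPKM reached 1, with eBayes and a mean-variance trend and Benjamini-Hochberg adjustment over all genes tested. Alternatives changed the pseudocount to 0.1, the filter (none, or a mean FPKM of 5), the scaling (median, quantile), the variance trend and the replicate block, fitted both lines jointly, used voom, left out each library, and corrected each library, blind to group, by splines with 5 degrees of freedom of GC content (longest GENCODE 29 transcript) and log exon length. GC content was known for all 43 genes. The fits were tested on simulated data. Summed fibroblast markers stayed at 61.5 to 66.5 FPKM in Huh7 with the miR-628-3p mimic, 44.0 to 55.9 with the control mimic, 2.41 to 3.13 in MHCC97H with the miR-628-3p vector and 1.74 to 2.13 with the empty vector, most of it LUM. Endothelial markers summed to 2.25 to 2.37, 2.00 to 2.32, 9.00 to 9.51 and 5.83 to 6.59 in the same groups. Leukocyte markers summed to 136 to 159.8, 145 to 179, 3.05 to 3.12 and 2.34 to 3.04, mostly LYZ, and epithelial markers to 1142 to 1284, 1356 to 1500, 1847 to 2418 and 2053 to 2170. Their part in the results was not tested. Python 3.11.15, pandas 2.3.3, numpy 2.4.6 and matplotlib 3.10.9 were used for searches and figures.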

Additional observations from a re-analysis of the deposited data

Results flagged for a closer look

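For 6 genes the effect of miR-628-3p differed between the lines by the interaction test, and a positive value below means a higher log2 fold change in MHCC97H than in Huh7. LPCAT3 differed by 0.37, and its libraries with miR-628-3p were all higher than their controls in MHCC97H and all lower in Huh7. NFE2L2 differed by -0.79, with the opposite order. GPX3 differed by 0.53, PRDX2 by 0.56, PRDX6 by 0.27 and TXNRD1 by -0.26. Delivery, by vector in MHCC97H and by mimic in Huh7, cannot be told apart from the line.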

How the results depend on the processing

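Members called in Huh7 (16) were 0 with no expression filter, 0 after GC and length correction, with or without the replicate block, and 8 in the joint fit; genes called (2642) were 7, 1, 1 and 866, and 1694 without the variance trend. In MHCC97H, members called (1) were 0 with no filter, after median rescaling or without the trend, 2 after quantile normalization, 11 after the correction and 5 in the joint fit; genes called (680) were 326 with no filter, 1981 after the correction and 1672 in the joint fit. In the difference between lines, members (6) were 1 and genes (1694) were 967 with no filter. Unadjusted, these counts of 0 had 20 members under 0.05 in Huh7 with no filter and 13 after the correction, and 8, 4 and 7 in MHCC97H. Over all genes, 5910 of 29305 and 2889 of 12452 were under that p in these Huh7 settings. In MHCC97H it was 3899 of 29072 with no filter, 2619 of 12670 after median rescaling and 2777 of 12670 without the trend. Voom called 18 members and 3537 of 12508 genes in Huh7, and 1 member and 739 of 12670 genes in MHCC97H.

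Leaving out a library gave 0 to 14 members and 0 to 1661 genes in Huh7, 0 to 10 members and 142 to 1604 genes in MHCC97H, and 2 to 20 members and 637 to 4670 genes in the difference. Between control groups, PRDX5 turned to -0.28 after the correction, with or without the block, and AKR1C2 to 0.092 after quantile normalization and 0.17 after the correction; the causes were not tested. Of single-gene results under all alternatives, 1450 kept direction and side of the threshold, 203 lost and 76 gained a call, and 5 turned direction.

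Whether the replicate numbers pair the libraries was not settled. Deviations of same-numbered libraries correlated at -0.015, -0.075 and 0.037 in Huh7 and -0.088, 0.305 and 0.135 in MHCC97H. Differently numbered libraries correlated at -0.145 to 0.171 in Huh7 and -0.343 to 0.250 in MHCC97H. With 3 libraries per group, deviations from a group mean depend on each other, so these values cannot decide it. With the replicate block, members called were 13 in Huh7, 0 in MHCC97H, 4 in the difference and 35 of 42 between control groups. Genes called were 1187 of 12508 in Huh7 and 495 of 12670 in MHCC97H. They were 1106 of 13171 in the difference and 11001 of 13191 between control groups. In MHCC97H, 7 of 41 members and 2938 of 12670 genes were under the threshold by unadjusted p. With the block and the correction together, MHCC97H had 7 members and 1651 genes called. Genes near 1 FPKM rest on few reads. SRXN1 had 16 to 44 reads per library, and 84.5% of its 100-base windows are shared with another gene. The part of depth and of shared sequence in its low count was not tested.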
